A study of Mus musculus with 80 samples.

Results

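Retinoic acid receptors and the small proteins that bind retinoic acid in the cytoplasm were examined across single cells of the mouse dorsomedial striatum. The group was chosen by gene name and holds 7 of the 25160 listed genes, namely the retinoic acid receptors Rara and Rarb, the retinoid X receptors Rxra, Rxrb and Rxrg, and the cellular retinoic acid binding proteins Crabp1 and Crabp2. All 7 were listed in the table. The cells came from adult mice that carried 1 copy each of the Drd1a-TdTomato and Drd2-EGFP reporter transgenes (Drd1a-TdTomatohet;Drd2-EGFPhet), so every cell shared both transgenes. They were sorted by FACS, and cDNA from each single cell was sequenced. The 40 Drd1a-TdTomato cells are called D1 MSN, after the medium spiny neurons (MSN) of the direct pathway that this reporter marks. Of the 40 Drd2-EGFP cells, 38 are called D2 MSN, after the MSN of the indirect pathway, and the 2 with Chat above 100 TPM are called cholinergic interneurons (ChI), which also express Drd2. No treatment was compared. Both reporters are BAC transgenes, and a cell's colour therefore shows the transgene rather than the endogenous receptor.

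Retinoic acid is made inside cells from retinol and reaches the nucleus, where it binds heterodimers of a retinoic acid receptor (RAR) and a retinoid X receptor (RXR) on DNA. Without the ligand these dimers hold corepressors, and with it they exchange them for coactivators. CRABP proteins carry retinoic acid in the cytoplasm. The striatum is known as a region of the adult brain that keeps retinoic acid signalling, and mice that lack Rarb and Rxrg have been described to have altered dopamine receptor expression and movement.

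Levels are given as TPM, in which transcripts are corrected for length and scaled within each cell. The paper describes a bias of the reads to the 3' end, which made the counting of Chrm4 depend on the annotation used. Levels of different genes can therefore be set against each other only roughly. A gene was counted as found in a cell above 1 TPM. The TPM of the listed genes summed to between 506588 and 958040 per cell (median 852943), and between 648 and 8657 genes were found per D1 MSN (median 5722), between 1215 and 7942 per D2 MSN (median 4927.5), and 10912 and 10251 in the ChI. Since TPM hold no read counts, the depth of each cell is not known, and a gene at 0 is described only as listed at 0. The cells lay on plate FACS051_5 (18 D1 MSN, 16 D2 MSN and both ChI), plate FACS086_4 (21 and 19 MSN) and plate FACS086_9 (1 and 3). Every plate held both subtypes, so a value within a plate compares cells that were handled together. The cells came from 3 animals, which the labels do not tie to cells or plates. Cells of 1 animal are not replicates, so each group counted as 1 sample and tests were left out. The markers matched the labels: the summed TPM of Drd1, Pdyn, Tac1, Isl1 and Slc35d3 had a median of 1253 in D1 MSN and 1.84 in D2 MSN, and that of Drd2, Adora2a, Penk and Gpr6 a median of 11.6 and 10848. Single cells departed from this and were kept. The first sum fell to 0.871 TPM in a D1 MSN and rose to 1218 TPM in a D2 MSN. The second rose to 3682 TPM in a D1 MSN. One D1 MSN (well D04 of FACS051_5) held Drd1 at 2.03 TPM and the astrocyte gene Aldoc at 10427 TPM, and among its members Rarb stood at 73.9 TPM, Rxrg at 2.32 TPM and Crabp1 at 0.

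RAR:RXR dimers bind direct repeats of a 6-base half-site, and a spacing of 5 bases (DR5) is the arrangement best known for retinoic acid. The half-sites AGGTCA or GGGTCA or AGTTCA or GGTTCA were searched on both strands of RefSeq promoters (GRCm38.p6), each 250 bases before to 50 after a transcript start, where 12 promoters of 6 members were found. A DR5 lay in 32 of 32851 promoters (0.0974%), and among the members in the Rarb promoter only. It is shown because Rarb was the RAR found in most MSN, with the half-sites in capitals and the 5 bases between them in lower case. The site lies from 53 to 37 bases before the RefSeq start, in a window that also overlaps annotated exons of Rarb and of Gm48162 on the other strand.

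Rarb, chr14:16575506-16575535, minus strand: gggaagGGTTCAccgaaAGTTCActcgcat

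The 250 bases before a start of Rxrg and of Crabp1 are shown for contrast, since these are the other members that were often found or differed between the groups. Half-sites are again in capitals. The Rxrg stretch holds 1, on the minus strand, and the Crabp1 stretch holds 0. The 250 bases before the other RefSeq start of Rxrg, not shown, hold 2. Over the full promoter windows 43.7% of all promoters held 1 or more. Repeats spaced by 1 base (0.222% of promoters) or by 2 bases (0.268%) were in no member's promoter. A match is a description of the letters and not a bound site.

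Rxrg, chr1:167598112-167598361, plus strand: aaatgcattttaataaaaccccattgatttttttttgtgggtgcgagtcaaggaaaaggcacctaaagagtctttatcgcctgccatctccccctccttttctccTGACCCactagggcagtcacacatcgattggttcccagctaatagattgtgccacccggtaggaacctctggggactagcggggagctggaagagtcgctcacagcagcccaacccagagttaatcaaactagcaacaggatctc

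Crabp1, chr9:54764498-54764747, plus strand: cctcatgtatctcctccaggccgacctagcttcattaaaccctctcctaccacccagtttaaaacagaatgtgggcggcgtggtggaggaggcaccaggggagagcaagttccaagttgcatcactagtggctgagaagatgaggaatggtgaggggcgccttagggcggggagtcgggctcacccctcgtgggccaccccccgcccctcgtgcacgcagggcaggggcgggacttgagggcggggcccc

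Among the RARs, Rarb was the one found in most MSN of both subtypes, in 62 of 78 cells (79.5%, exact Clopper-Pearson 95% interval 68.8 to 87.8%, which like all intervals here covers counting error only). Its mean TPM stood at the 94.0 percentile of the listed genes. In D1 MSN it ran from 0 through a median of 51.4 to 315 TPM, and in D2 MSN from 0 through 38.3 to 346 TPM. The ranges overlapped throughout. It was found in 32 of 40 D1 MSN (80%, interval from 64.4 to 90.9%) and 30 of 38 D2 MSN (78.9%, interval from 62.7 to 90.4%). Its mean level of 78.2 TPM in the D1 group and 73.8 TPM in the D2 group corresponded to a log2 fold (D1 over D2) of 0.08 on the scale of mean TPM + 1. That near-equal mean was made of opposite directions on the large plates. On FACS051_5, D1 MSN averaged 70.3 TPM and D2 MSN 119 TPM (log2 fold -0.75), with Rarb found in 13 of 18 and 15 of 16 cells. On FACS086_4 the means were 88.5 and 38.0 TPM (log2 fold 1.20), with 18 of 21 and 13 of 19 cells.

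The number of genes found per cell moved with Rarb. Its D1 MSN with Rarb had a median of 5926 genes and those without 3545, and in D2 MSN the medians were 5238.5 and 3287. Among cells with at least 5000 genes, a limit chosen after seeing the data, Rarb was found in 24 of 27 D1 MSN (88.9%) and 15 of 17 D2 MSN (88.2%). The part of depth in the level of Rarb was not tested. Rarb lies on the minus strand of chromosome 14 (16430839 to 16819156, GRCm38, GENCODE M21), where its end overlaps that of Top2b on the plus strand over 4624 bases. Of its 5265 annotated exonic bases, 1793 (34.1%) are also exonic in Top2b. The sources do not say whether counting used strand, and reads from the shared stretch cannot then be told apart. Top2b, a DNA topoisomerase, had means of 70.3 TPM (D1 MSN) and 18.3 TPM (D2 MSN) and was found in 44 of 78 MSN, and Spearman's rho of its TPM with that of Rarb was 0.28 over these cells, which share plates and differ in depth.

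Rara, the RAR expressed most broadly across tissues, was near the detection limit. It was found in 7 of 40 D1 MSN (17.5%, interval from 7.34 to 32.8%), with a highest value of 4.39 TPM, and in 4 of 38 D2 MSN (10.5%, interval from 2.94 to 24.8%), with a highest value of 6.57 TPM. The median was 0 in both groups. The means of 0.403 and 0.336 TPM gave a log2 fold of 0.07. Cells with Rara were among those with many genes: the median was 7342 genes in the 7 D1 MSN with it and 5504 in the other 33. Rarg, the third RAR, was found in 3 D1 MSN at 24.0, 18.7 and 6.32 TPM and was listed at 0 in all D2 MSN.

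Among the RXRs, the obligate partners of the RARs and of several other nuclear receptors, Rxrg stood highest. It was found in 60 of 78 MSN (76.9%, interval from 66.0 to 85.7%), and its mean lay at the 96.5 percentile of listed genes. In D1 MSN it ran from 0 through a median of 25.3 to 454 TPM, and in D2 MSN from 0 through 73.5 to 756 TPM. The groups overlapped widely, with the upper values and the median higher in D2 MSN. It was found in 28 of 40 D1 MSN (70.0%, interval from 53.5 to 83.4%) and 32 of 38 D2 MSN (84.2%, interval from 68.7 to 94.0%). The D1 group averaged 90.3 TPM and the D2 group 158 TPM, which gave a log2 fold of -0.80.

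The direction of Rxrg was the same on both large plates. On FACS051_5 D1 MSN averaged 135 TPM and D2 MSN 205 TPM (log2 fold -0.60), and on FACS086_4 the means were 56.0 and 139 TPM (-1.30). It was also below 0 in each of 15 alternative ways of computing it, from -1.20 to -0.46. The median number of genes found was 5109 in D1 MSN and 5923 in D2 MSN on FACS051_5, and 5730 and 4617 on FACS086_4, and its part in the level of Rxrg was not tested. In cells with at least 5000 genes Rxrg was found in 20 of 27 D1 MSN (74.1%, interval from 53.7 to 88.9%) and 15 of 17 D2 MSN (88.2%, interval from 63.6 to 98.5%), and these intervals overlap.

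Rxrb was found in fewer cells and Rxra in very few. Rxrb was found in 11 D1 MSN (27.5%, interval from 14.6 to 43.9%) and 11 D2 MSN (28.9%, interval from 15.4 to 45.9%), at 13.3 to 212 TPM in the former and 3.30 to 218 TPM in the latter, and its median was 0 in both groups. The means of 17.5 and 21.1 TPM gave a log2 fold of -0.25, which turned to 0.14 without the highest D2 MSN and to 0.05 without plate FACS086_4, was -0.01 without the cells with fewer than 2000 genes, and was -0.71 without the highest D1 MSN and -2.07 under upper quartile scaling. Rxra was found in 1 D1 MSN at 9.92 TPM and in 2 D2 MSN at 50.3 and 3.43 TPM. Its log2 fold of -0.92 rested on the cell at 50.3 TPM and was 0.23 without it.

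**Figure D1:**
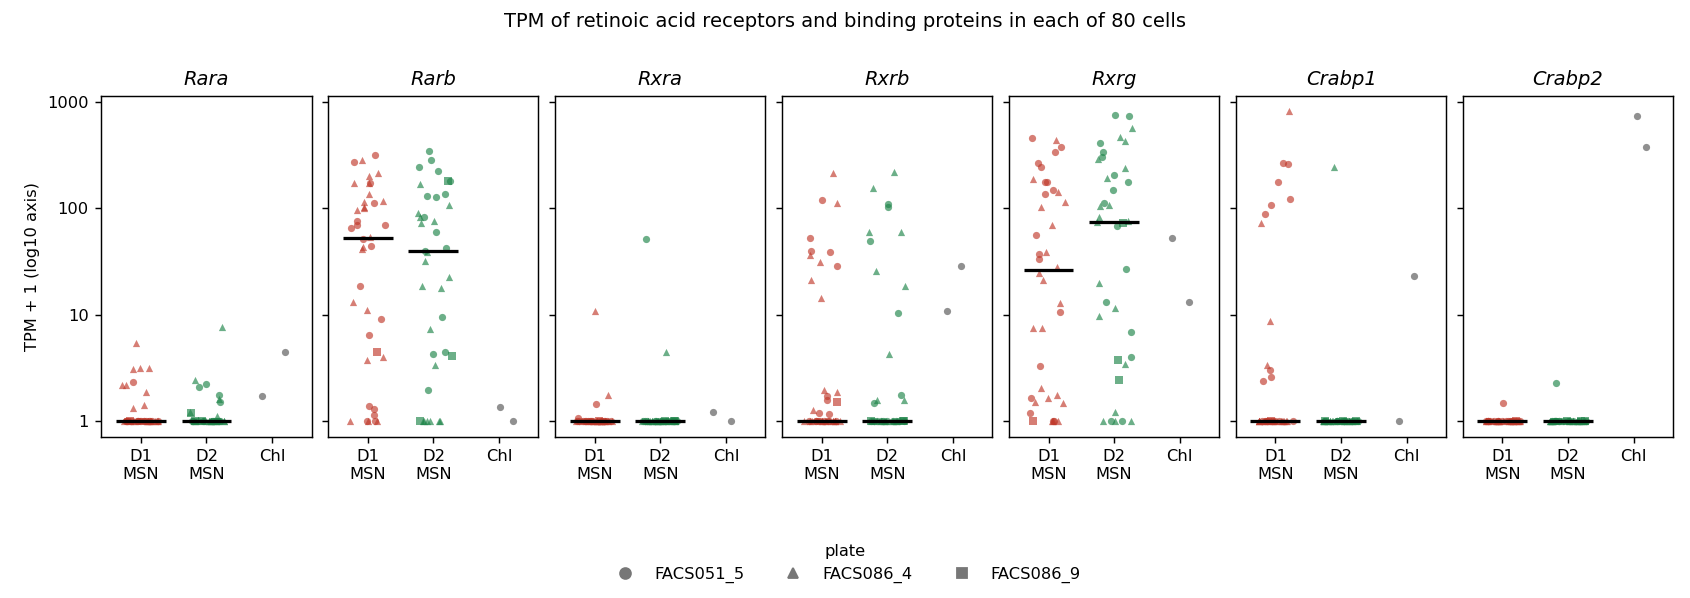
TPM + 1 on a log10 axis for each of the 7 genes in 40 D1 MSN (red), 38 D2 MSN (green) and 2 ChI (grey); each symbol is 1 cell, its shape gives the plate, and the black bar is the median of the group. Rarb and Rxrg spread from 0 up to 346 and 756 TPM, Crabp1 is raised in 13 D1 MSN and 1 D2 MSN, and Crabp2 is at 375 and 732 TPM in the ChI and at most 1.26 TPM in MSN.

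By mean TPM over the 78 MSN, the order was Rxrg (123 TPM), Rarb (76.1 TPM), Crabp1 (27.6 TPM), Rxrb (19.3 TPM), Rxra (0.833 TPM), Rara (0.370 TPM) and Crabp2 (0.0224 TPM). It is a rough order, given the bias of the reads to 1 end of the transcripts. Rxrg and Rarb are neighbours whose values overlapped from cell to cell, with Rxrg the higher in 40 cells and Rarb in 37. The place of Crabp1 above Rxrb rested on 1 cell, without which the mean of Crabp1 was 17.4 TPM, and Crabp1 was found in 14 MSN (17.9%) and Rxrb in 22 (28.2%). The place of Rxra above Rara rested on 1 cell too, without which Rxra averaged 0.190 TPM, and Rxra was found in 3 MSN and Rara in 11.

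Rarb and Rxrg, which can form a dimer, were each found in most MSN, so cells with both are frequent by these shares alone. Rarb was found in 80% of D1 MSN and 78.9% of D2 MSN, and Rxrg in 70% and 84.2%. Both were found in 24 of 40 D1 MSN, Rarb alone in 8, Rxrg alone in 4 and neither in 4. In D2 MSN the counts were 26, 4, 6 and 2 of 38. The 6 MSN with neither had a median of 2947 genes found, against 5768.5 in the 50 with both. Within single cells, Rarb stood above Rxrg in 23 of 40 D1 MSN, and in 14 of 38 D2 MSN with 1 tie. Their levels varied largely apart, with a Spearman's rho of 0.10 over the 78 MSN. Rxrb accompanied Rarb in 17 of the 22 MSN in which it was found, and Rara did so in 10 of 11. Rarb itself was found in 79.5% of all MSN.

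The genes whose TPM varied most like a member's across MSN were sought among 9191 genes found in at least 20% of the cells. For Rarb these were Etfdh (rho 0.53), RP23-89F9.7 (0.51) and Tppp (0.50). Rxrg went most closely with Ccdc88a (0.51), Spata2l (0.49) and Rasgef1a (0.48), and Rxrb with Exd2, 5730480H06Rik and Scyl3 (0.47 each). The points share plates and depth, and rho with the number of genes found was 0.40 for Rarb, 0.32 for Rxrb and 0.17 for Rxrg itself.

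**Figure D2:**
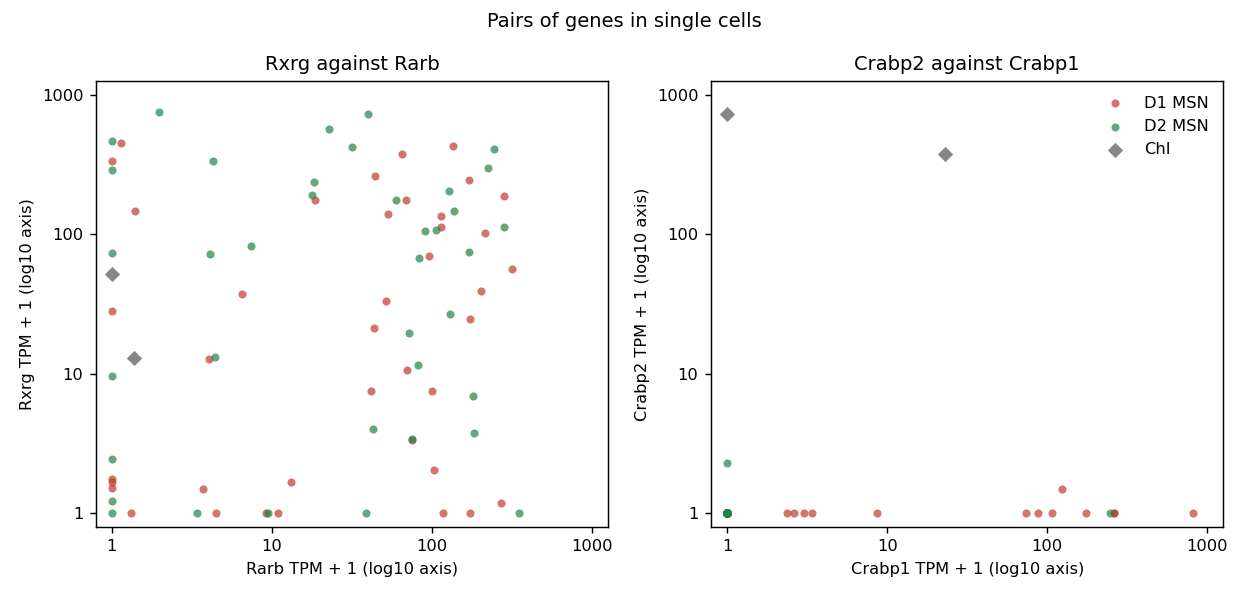
Rxrg against Rarb (left) and Crabp2 against Crabp1 (right), both axes as TPM + 1 on a log10 scale; each point is 1 cell (red D1 MSN, green D2 MSN, grey diamonds ChI). Most MSN hold both Rarb and Rxrg with little relation between their levels, while the cells with Crabp1 and those with Crabp2 lie along separate axes, apart from 1 ChI with both.

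Crabp1 was the member that differed most between the subtypes. It was found in 13 of 40 D1 MSN (32.5%, interval from 18.6 to 49.1%) and in 1 of 38 D2 MSN (2.63%, interval from 0.0666 to 13.8%). In D1 MSN it ran from 0 through a median of 0 to 813 TPM, and 37 of the 38 D2 MSN were listed at 0 while the remaining one held 245 TPM. The D1 MSN with Crabp1 fell into 5 cells between 1.36 and 7.65 TPM and 8 cells between 72.2 and 813 TPM. With means of 47.7 TPM (D1) and 6.45 TPM (D2), the log2 fold was 2.71. Of 13244 genes tested, those above 1 TPM in at least 10% of MSN and not listed at 0 throughout a group, 13.6% were above 2-fold in D1 MSN and 9.15% in D2 MSN by the same measure. Of the 7 members, Crabp1 was above 2-fold in D1 MSN and none in D2 MSN. Only 5 members were among the genes tested, and Crabp1 was one of them only through its D1 MSN and the 1 D2 MSN that held it, so its count is not read against that share. The difference in the share of cells with Crabp1 was 29.9 percentage points, and it is not read against the genes tested either. Of those genes 65.8% had the higher share in D1 MSN, with a median difference of 4.08 points. How many of them differed by as much as Crabp1 was not counted.

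The 813 TPM cell (well D01 of FACS086_4) held 42.6% of the D1 sum of Crabp1. Without it the log2 fold was 1.97, and without the 1 D2 MSN no fold could be given, because Crabp1 was then listed at 0 in all D2 MSN. Plates differed. On FACS051_5 Crabp1 was found in 9 of 18 D1 MSN (50.0%, interval from 26.0 to 74.0%), up to 262 TPM, and in 0 of 16 D2 MSN (upper limit of the interval 20.6%). On FACS086_4 it was found in 4 of 21 D1 MSN (19.0%, interval from 5.45 to 41.9%) and 1 of 19 D2 MSN (5.26%, interval from 0.133 to 26.0%), with a log2 fold of 1.65, and these intervals overlap. The fold on this plate rested on the 813 TPM cell, which held 90.8% of the D1 sum there. Without it the means were 4.11 TPM (D1) and 12.9 TPM (D2), and the direction turned, to a log2 fold of -1.44. In cells with at least 5000 genes the counts were 10 of 27 D1 MSN (37.0%, interval from 19.4 to 57.6%) and 0 of 17 D2 MSN (upper limit 19.5%).

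**Figure D3:**
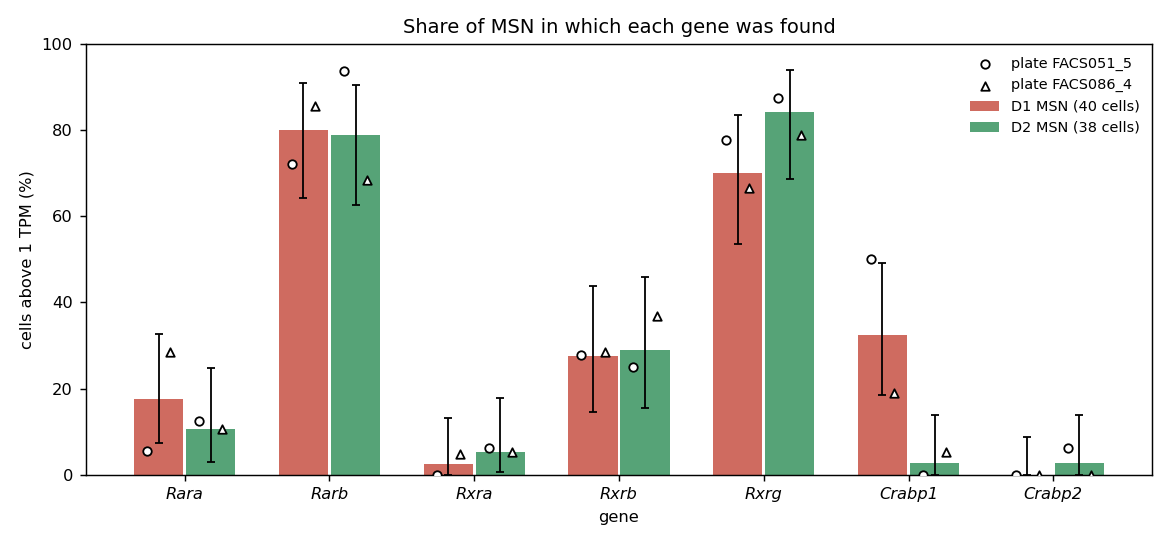
Percentage of D1 MSN (red, 40 cells) and D2 MSN (green, 38 cells) above 1 TPM for each gene; bars are all plates, error bars are exact Clopper-Pearson 95% intervals (counting error only), and open circles and triangles are the values within plates FACS051_5 and FACS086_4. For Crabp1 the intervals over all plates run from 18.6 to 49.1% and from 0.0666 to 13.8%. Its intervals within FACS086_4 overlap (5.45 to 41.9% and 0.133 to 26.0%), as do those of the other 6 genes over all plates. How many of all listed genes have intervals that do not overlap was not counted, so the gap is not read as particular to Crabp1. The intervals take cells as independent and leave out the animals, so they are no test between the groups.

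Most markers in the cells with Crabp1 were those of their subtype. All 13 D1 MSN with it held Drd1 (4.02 to 501 TPM), Tac1, Ppp1r1b and Rgs9 above 1 TPM, and Adora2a at most at 0.605 TPM. The D1 marker Pdyn was above 1 TPM in 7 of these 13 cells, and in 15 of the 27 D1 MSN without Crabp1. The D2 marker Penk was above 1 TPM in all 13 (1.67 to 500 TPM, median 11.6) and in all 27 of the others (4.46 to 3676 TPM, median 11.3). Chat was at most at 0.544 TPM in the 13. The sum of 4 listed markers of other striatal interneurons (Sst, Pvalb, Cck and Nkx2-1, of a list of 7) was above 1 TPM in 4 of the 13, up to 325 TPM. In the 27 D1 MSN without Crabp1 it was above 1 TPM in 3, up to 139 TPM. Sst, Pvalb and Nkx2-1 were at most at 2.51, 1.95 and 0.542 TPM in the 13, and at 0, 0 and at most 0.689 TPM in the 27. The high sums were thus nearly all Cck. The sum of 3 listed markers of cortical excitatory neurons (of a list of 4) was above 1 TPM in 7 of the 13, up to 147 TPM, against 12 of the 27, up to 5.25 TPM. The part of such cells in the Crabp1 values was not tested. The 1 D2 MSN with Crabp1 (well A05 of FACS086_4) held Penk at 14053 TPM, Adora2a at 104 TPM, Drd2 at 29.0 TPM and Drd1 at 0.546 TPM, beside Rarb at 89.4 TPM and Rxrg at 105 TPM. The 13 D1 MSN had a median of 6191 genes found, against 5508 in the 27 without Crabp1. Of these 13 cells, 10 also held Rarb and 10 Rxrg, which were found in 80% and 70% of all D1 MSN. The part of depth, or of the plates, in the Crabp1 count was not tested.

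Crabp2, the second binding protein, known to pass retinoic acid on to nuclear receptors, was nearly missing from MSN. It was listed at 0 in 39 of 40 D1 MSN and 37 of 38 D2 MSN, and the others held 0.482 and 1.26 TPM. In the ChI it stood at 375 TPM (well A08) and 732 TPM (well B02). Only 15 of the 25160 listed genes (0.0596%) were above 100 TPM in both ChI and above 1 TPM in at most 1 MSN, a measure set with the values of Crabp2 known. Next to Crabp2 these included Lhx8, a transcription factor of cholinergic neurons, the choline transporter Slc5a7 and the vesicular acetylcholine transporter Slc18a3. The other members in the ChI stood at 0.365 and 0 TPM for Rarb, 12.03 and 50.9 TPM for Rxrg, 9.86 and 27.8 TPM for Rxrb, 0.708 and 3.47 TPM for Rara, 0.222 and 0 TPM for Rxra, and 22.1 and 0 TPM for Crabp1, in the order A08 and B02. Rarb was thus at most 0.365 TPM in the 2 cells with the most genes found, while it was found in 79.5% of the MSN. Both ChI came from 1 plate, and 2 cells give no spread for the type.

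The other genes of the retinoid pathway were read from lists of 43 genes, of which 37 were listed in the table and 33 could be given a fold. In D1 MSN 4 were above 2-fold and in D2 MSN 4, with a median log2 fold of 0.17, beside 0.08 over the 13244 genes tested. Of the 23 that were among those 13244 genes, 1 was above 2-fold in D1 MSN and 2 in D2 MSN, shares no higher than the 13.6% and 9.15% of all genes tested. Those above 2-fold included Rdh11, Aldh1a1 and Ppara in D1 MSN, and Stra6, Thrb, Kat2b and Drd2 in D2 MSN. Apart from Thrb and Drd2, each gene named here was found in at most 4 cells of a group. None could be shown above 2-fold in the same direction on both large plates, and Drd2 was listed at 0 in the D1 MSN of FACS086_4.

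Of the 7 listed synthesis genes (Rdh10, Rdh11, Aldh1a1, Aldh1a3, Lrat, Dhrs3 and Bco1), none was found in as many as 50% of the cells of either group. The retinaldehyde dehydrogenase Aldh1a3, named for its count, was found in the most cells, in 15 D1 MSN and 13 D2 MSN at no more than 14.4 TPM, and its relative Aldh1a1 was above 1 TPM in 1 D1 MSN only, at 305 TPM. Among the carriers, the fatty acid binding protein Fabp5, which also takes retinoic acid, was found in 22 D1 MSN and 23 D2 MSN at means of 103 and 111 TPM (log2 fold -0.10). This fold changed sign within the large plates, being 0.46 within FACS051_5 and 0.72 within FACS086_4, and it was -4.84 under upper quartile scaling. The receptors' cofactors were found more widely. The corepressor Ncor1 was found in 37 of 40 D1 MSN and 34 of 38 D2 MSN at means of 245 and 219 TPM, and its log2 fold of 0.16 was 0.63 on FACS051_5 and -0.27 on FACS086_4. The coactivators Ncoa1 (29 and 22 cells, log2 fold 0.17), Med1 (20 and 16 cells, 0.24) and Crebbp (30 and 19 cells, 0.69) followed, and that of Ncoa1 also had opposite directions on these plates (-0.62 and 0.44). Crebbp, a histone acetyltransferase, had means of 44.0 and 26.9 TPM, and the folds within FACS051_5 and FACS086_4 were 0.69 and 1.67.

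Of the other receptors that pair with RXR, the thyroid hormone receptor Thra was found in 34 D1 MSN and 32 D2 MSN at means of 110 and 88.0 TPM (log2 fold 0.32). Nr4a1, an immediate early gene, was found in 27 and 23 cells at 80.5 and 65.1 TPM (0.30). Among genes known to respond to retinoic acid, the cofactor Nrip1 was found in 20 and 19 cells, and its log2 fold of 0.69 was 1.15 on FACS051_5 and -0.67 on FACS086_4. The dopamine receptor Drd2 was found in 2 D1 MSN and 26 D2 MSN, at means of 0.171 and 50.0 TPM. The cells were grouped by reporters of Drd1 and Drd2, so this difference is not read as a result.

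**Figure D4:**
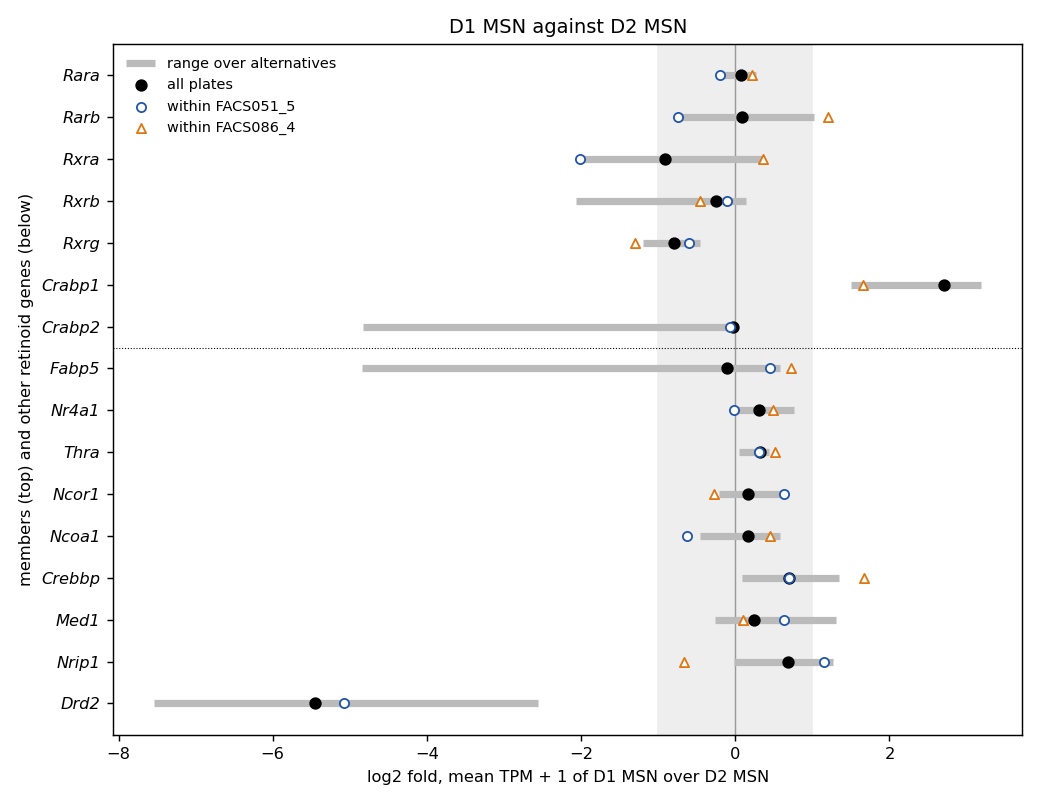
Log2 folds (D1 MSN relative to D2 MSN) on the scale of mean TPM + 1 for the 7 genes (top) and the retinoid pathway genes found in at least 50% of the cells of a group (below the dotted line); black points are all plates, open symbols are single plates, grey bars are the range over the alternatives, and the shaded band lies within 2-fold. Crabp1 lies beyond the band at 2.71, Rxrg is below 0 on both plates, and Rarb lies on opposite sides of 0 on the 2 plates; the long bar of Crabp2 comes from keeping the ChI among the D2 cells.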

How the data were processed

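Single cells of adult mouse dorsomedial striatum were sorted by FACS and their cDNA, made with a SMARTer kit, was sequenced. The authors deposited TPM per gene and cell, and how the TPM were made is not given in the sources used here. The submitters' processing notes name bcl2fastq 2.18, FastQC 0.11.5, STAR 2.5.0, featureCounts 1.5.1 and DESeq2 1.14.1 and the build mm10/GRCm38. Values were used as deposited.

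Log2 folds were taken between mean TPM + 1, cells were counted above 1 TPM with exact Clopper-Pearson 95% intervals, and folds were omitted where 1 group was at 0 in all its cells. Each group was 1 sample, since the labels tie no cell to an animal, so no test was made. The Chat limit of 100 TPM was set with the values known, and the study left such cells out too. The paper also reports usable data from fewer cells than it set out to sequence, and its text does not name the others. All 80 cells were kept here, so the MSN may not be the study's own set. These MSN include 1 D1 MSN and 2 D2 MSN with fewer than 2000 genes found. The genes, lists and marker genes were chosen with earlier results of these data known. Named genes were the 7 members, pathway genes found in at least 50% of the cells of a group or past 2-fold on both large plates in 1 direction, and the 3 genes with the highest Spearman's rho for each member found in at least 20% of MSN. Other genes were named after their values were seen.

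The pathway lists were retinol uptake and carriers, retinoic acid synthesis, clearance, Rarg, partners of RXR, corepressors, coactivators and responding genes. Ttr, Aldh1a2, Cyp26a1, Cyp26b1, Cyp26c1 and Nr1h3 were not analysed here, and some items are not reported here. Gene positions came from GENCODE M21 and promoters from RefSeq, which matched 6 of the 7 members (not Crabp2). A comparison of protein sequences was not run. Alternatives changed the pseudocount (0.1 or 10 TPM), the mean, the scaling, the detection limit and the cells kept. The steps were tested on simulated data. Computation used scipy 1.17.1 with pandas 2.3.3 and numpy 2.4.6 under Python 3.11.15, and matplotlib 3.10.9 drew the plots.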

Additional observations from a re-analysis of the deposited data

Results flagged for a closer look

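Crabp2 in the ChI drew attention because these 2 cells were left out of the comparison of D1 and D2 MSN and yet held the gene well above the MSN. Crabp2 stood at 375 TPM in the cell of well A08 and at 732 TPM in that of well B02 of plate FACS051_5, against at most 1.26 TPM in the 78 MSN. The difference was not tested, since 2 cells of 1 plate are not replicates.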

How the results depend on the processing

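Log2 folds of members moved by less than a measure of spread in 90 cases and by more in 8. The measure was the SD between both large plates or, for Crabp1 and Crabp2, which had a fold on 1 of them only, the gap between that fold and the one over all plates. It is wide where plates disagree, so the count of 90 does not show stable folds. For Rarb it was 1.38, and the folds of 1.02 without FACS051_5 and -0.71 without FACS086_4 counted as moved by less. The fold of Crabp1 stayed above 0 under all 12 alternatives that gave a value, with 1.51 as the lowest, for the difference of mean log2 values. The exception was within FACS086_4 without its highest D1 MSN, where the fold turned to -1.44. It had no value without plate FACS086_4, with the highest cell of each group left out or with the highest D2 MSN left out, because Crabp1 was then listed at 0 in all D2 MSN. The number of members above 2-fold in D1 MSN, 1 in the report, was therefore 0 in these 3 settings, and it was 2 without plate FACS051_5, where Rarb joined. The number above 2-fold in D2 MSN, 0 in the report, was 1 in 7 settings. The gene was Rxra with a pseudocount of 0.1 TPM, with equal weight for the large plates, with the highest D1 MSN left out and without FACS086_4, Rxrb under upper quartile scaling, Crabp2 with the ChI kept and Rxrg without FACS051_5. Leaving out the highest D1 or the highest D2 cell, also within plates, and the limit of 5000 genes were added after seeing the data. Shares of D1 MSN moved within their intervals in 42 cases and beyond them in 7, and shares of D2 MSN in 32 and 10. Of 6 repeats of the lists of most similar genes, 5 kept only 1 or 2 of the 3. Depth is unknown from TPM, so a gene at 0 may have been missed. No paired analysis was possible because the labels tie no cell to an animal or to a cell of the other group, and folds within plates were given instead.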

Other observations

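Within each large plate, D1 MSN with Crabp1 had the brighter TdTomato signal, although over all plates they had the dimmer one. The medians were 2388 and 1687 units in the 9 cells with and the 9 without Crabp1 on FACS051_5, and 3853.5 and 3238 units in the 4 and 17 cells on FACS086_4. Over all 40 cells they were 2421 and 3013 units, as more of the cells with Crabp1 lay on the plate with the lower signal. The cells with Crabp1 also had more genes found within each plate (medians of 6154 against 4838, and of 7401 against 5714), and neither pattern was tested.

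Cells differed in how many of the 7 genes they held. In D1 MSN 2 cells held 0 of them and 2 held 5, whereas in D2 MSN 1 held 0, and 20 of 38 held 2. The 2 D1 MSN with 5 had a median of 7122 genes found.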
